A study of Rattus norvegicus with 16 samples.

Results

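The 8 epididymal fat libraries of a rat feeding study were compared gene by gene, 4 from rats fed R-α-lipoic acid (LA) and 4 from pair-fed rats (PF), out of 16 libraries of liver and fat. All 8 rats were obese Zucker males of the ZDF/GmiCrl-fa/fa strain, which lack a working leptin receptor, so both feeds were given to obese, leptin-resistant animals and no lean rat was included. They were housed singly, assigned at random at 9 weeks of age to the Purina 5008 diet with LA or to the same diet without it in matched amounts, and killed after 2 weeks, at 11 weeks. Each library is a biological replicate, and liver and fat came from the same rats, although the labels do not pair them. The files list 22517 gene symbols with 1 FPKM value (a fragment count scaled to transcript length and to the mapped fragments of the library) per library. The comparison covered 11501 genes, those that reached 1 FPKM in 4 or more of the 8 fat libraries, on the scale of log2(FPKM + 1), and a difference is LA minus PF. All fold changes and list medians are on that scale too, which understates the change of low genes.

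Lipoic acid is a sulphur-containing cofactor that is bound to the E2 subunits of the pyruvate, 2-oxoglutarate and branched-chain dehydrogenase complexes in mitochondria. Epididymal fat is a depot of white adipocytes that take up fatty acids through lipoprotein lipase, store them as triglyceride and release them by lipolysis, and it also holds macrophages, vessels, stromal cells and a mesothelial cover. In obese fat, macrophages gather around enlarged adipocytes, and interferon signalling, in which a cascade of transcription factors switches on antiviral genes, runs in several of these cell types.

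The libraries carried the transcripts of white fat. Fabp4, the fatty acid carrier of adipocytes, was the most abundant gene in each of the 8, at 23358 to 31560.5 FPKM, and all 12 adipocyte markers passed the filter. Of 16 thermogenic fat genes in the files, 7 passed the filter, among them Cidea, a lipid droplet protein, at 180 to 287 FPKM. Ucp1, the uncoupling protein that defines brown fat, did not exceed 0.0782 FPKM and Ppargc1a, the coactivator of mitochondrial biogenesis, did not exceed 0.242 FPKM. None of the 14 epididymis and testis markers in the files passed the filter, and 9 of them were at 0 in all 8 libraries. Between 11276 and 11480 genes reached 1 FPKM in a library. The value of 1 fragment, estimated from the steps between low values, was 0.804 to 1 in PF and 0.771 to 0.898 in LA libraries relative to PF replicate 1. By this estimate relative depth varied within that range, with PF replicate 1 the shallowest fat library, while the total read number is unknown.

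The feeds differed little over the whole transcriptome. With limma and Benjamini-Hochberg adjustment over all 11501 genes, 2 genes had an adjusted p under 0.05 (0.0174% of those tested). At an unadjusted p under 0.05 there were 451 genes (3.92%), 275 higher under LA (2.39%) and 176 lower (1.53%), where evenly spread p-values would give 575. The 4 LA values lay above all 4 PF values in 152 genes (1.32%) and below them in 87 (0.756%). In the mean 55.3% of genes were higher and 44.7% lower under LA. These shares are the background for the list counts below. They come from the fit of all 8 libraries. List counts with a library left out are given without the all-gene share of the same fit, so they show only how far a count moved. The lists were chosen with earlier results of these data known, so their counts are descriptions. The median fold change was 0.01 and the median standard error 0.13. The 95% interval of the difference lay within a doubling or halving, -1 to 1, for 11062 genes (96.2%) and within -0.5 to 0.5 for 8378 genes (72.8%). Fold changes beyond 1 in size were estimated for 22 genes, 15 higher and 7 lower. In simulated data of this size, 200 genes with a mean log2(FPKM + 1) over 2 were changed, with noise drawn independently for each gene. Changes of 0.5, 1 and 2 were recovered in 32.3%, 80.3% and 98.5% of cases, with 12 false calls. With fewer changed genes the Benjamini-Hochberg cutoff is stricter, and real genes vary together, so these rates may be too high here. Many changes of 0.5 would have been missed. All genes named below other than Scd1 and LOC100359973 did not pass, and their values are given as measured differences.

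**Figure D1:**
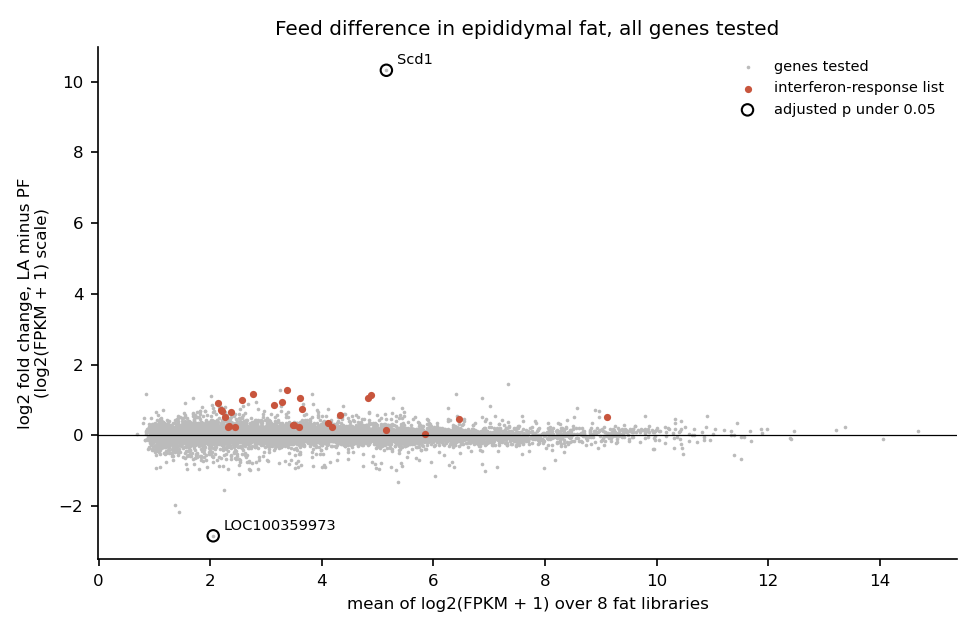
Each point is 1 of the 11501 genes, plotted by its mean log2(FPKM + 1) over the 8 fat libraries (x) and its log2 fold change, LA minus PF (y); red points are the 27 interferon-response genes and circles mark the 2 genes past an adjusted p under 0.05. All red points lie above 0, while the grey points scatter on both sides of it.

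Scd1, the stearoyl-CoA desaturase that makes oleate, was listed at 0 FPKM in PF replicates 1 to 4, and at 3477, 1123, 1661 and 407 in LA replicates 1 to 4 (limma, adjusted p = 4.73e-05). No fold change is given, because a listed 0 in these files is not always a low level. Alb and Tf, which encode albumin and transferrin, were listed at 0 in all 8 liver libraries, where hepatocytes make both proteins, yet at 51.2 to 581 and 229 to 387 FPKM in fat. The Scd1 values separate the feeds, but whether the PF zeros are levels was not tested. RefSeq lists Scd1 as an older name of Scd, and the symbol Scd of the files as an older name of Scd2, a paralogue; it stood at 9.63 to 24.5 FPKM under PF and 6.71 to 12.6 under LA. Scd1 passed the filter on low values only through the LA libraries, so that it had to differ, and its p is no more than a description of that split; leaving out any LA library removes it from the genes tested. With no filter it was called too. The same filter kept 2 unnamed models only through LA, and 3, LOC100360859 and LOC100363391 among them, only through PF.

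The other gene that passed was an unnamed model, LOC100359973, whose PF libraries held 9.36, 9.43, 7.68 and 15.3 FPKM and whose LA libraries held 1.30, 0.554, 0.630 and 0 (limma, log2 fold change -2.84, SE 0.26, adjusted p = 0.00655). In liver it was at 1151 to 1409.9 FPKM with both feeds. The 2 models next in order, LOC100360859 and LOC100363391, had the same arrangement, with PF values of 2.22 to 8.32 and 2.38 to 7.03 FPKM and LA values of no more than 0.641 and 0.685 (adjusted p = 0.174 for each). In the 3 LA libraries above 0 the first model stood to the other 2 in the fixed ratios 2.026 and 1.895, while the PF ratios ranged from 1.315 to 4.209 and from 1.341 to 5.634. The LA values of all 3 models are near the floor and may rest on very few fragments, which FPKM values do not show. Whether the 3 models share fragments was not tested, and they are uncertain. Leaving out LA replicate 2, LA replicate 3 or PF replicate 2 raised the adjusted p of LOC100359973 to 0.0964, 0.0813 and 0.0504.

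Interferon-response genes were higher in the mean under LA throughout the list. All 27 members tested were higher in the mean, 20 had an unadjusted p under 0.05 on the higher side, and 10 did not overlap between feeds. In the all-gene background 55.3% of genes were higher in the mean, 2.39% had such a p and 1.32% lay higher without overlap. The list was chosen with earlier results of these data known, so these counts are a description and no independent test. The list median was 0.56, beside 0.01 over all genes. The mean log2 deviation of the list was -0.30, -0.04, -0.56 and -0.33 in PF replicates 1 to 4. In LA replicates 1 to 4 it was 0.60, 0.43, 0.01 and 0.19, so PF replicate 2 and LA replicate 3 were close. The summed FPKM of the list overlapped, at 671 to 1118 under PF and 1018 to 1472 under LA. With each library left out in turn, 15 to 21 members had an unadjusted p under 0.05, and with the first PF and first LA library both left out 15 did, at a median of 0.48. No member passed over all genes (smallest adjusted p = 0.351 with limma).

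Ifit3, which binds viral RNA complexes, was at 5.71, 6.45, 5.17 and 6.90 FPKM under PF and 16.01, 14.3, 9.37 and 11.6 under LA, a fold change of 0.95 (SE 0.16). The 4 LA values all lay above the 4 PF values. The antiviral GTPase Mx2 was at 6.07, 8.50, 4.10 and 4.67 FPKM under PF and 20.01, 18.3, 10.7 and 13.3 under LA (1.28, SE 0.23). Mx1, its relative, had a fold change of 1.18 (SE 0.22). In both, as in Ifit3, LA replicates 1 and 2 were the highest and replicate 3 the lowest of the LA libraries.

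The transcription factors of the pathway were among the genes with the smallest p. Irf7, which amplifies type I interferon production, was at 20.9, 28.2, 14.1 and 15.4 FPKM under PF and 61.2, 46.4, 29.0 and 40.5 under LA, a fold change of 1.14 (SE 0.25). The lowest LA value exceeded the highest PF value by less than 1 FPKM. Irf9, the DNA-binding subunit of the ISGF3 complex, was at 13.7 to 17.7 FPKM under PF and 21.1 to 27.9 under LA (0.56, SE 0.11). Herc6, an ISG15 ligase, and Oas1a, a sensor of double-stranded RNA, had fold changes of 0.71 and 0.86 and no overlap. Outside the list, Slfn3, a growth-regulating schlafen, had a fold change of 1.28 with overlap between feeds, and the class I MHC gene RT1-T24-3 had 0.84 without it. Antigen presentation as a list had a median of 0.09 over 17 genes, of which 16 were higher in the mean and none had an unadjusted p under 0.05.

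**Figure D2:**
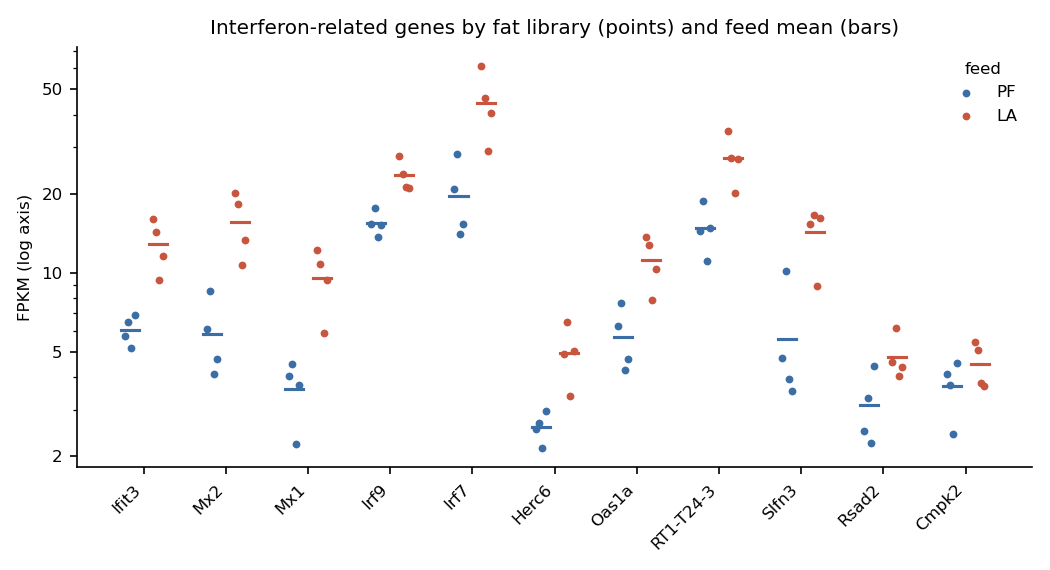
FPKM on a log axis of 11 interferon-related genes in each fat library (points; blue, PF; red, LA) with feed means (bars). The LA points of Ifit3, Mx2, Mx1, Irf9, Irf7, Herc6, Oas1a and RT1-T24-3 lie above the PF points, and those of Slfn3, Rsad2 and Cmpk2 overlap.

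Interferon-activated factors bind a tandem GAAA element, so the promoters of these genes were searched for GAAANNGAAA on either strand (TTTCNNTTTC on the other) in the 300 bases from 250 before to 50 after each gene's start, from RefSeq with the GRCr8 assembly. Of the 27 tested genes, 19 had a promoter in the table and 13 of those held the motif (68.4%), beside 1312 of all 33469 promoters (3.92%). These are letter matches, not sites of binding, and the list was known to be interferon-responsive beforehand. The promoters of 3 members with non-overlapping values are shown, with the match in capitals. They lie at chr1:241527076-241527375 on the plus strand, chr1:205799974-205800273 on the minus strand and chr12:41330216-41330515 on the plus strand.
Ifit3: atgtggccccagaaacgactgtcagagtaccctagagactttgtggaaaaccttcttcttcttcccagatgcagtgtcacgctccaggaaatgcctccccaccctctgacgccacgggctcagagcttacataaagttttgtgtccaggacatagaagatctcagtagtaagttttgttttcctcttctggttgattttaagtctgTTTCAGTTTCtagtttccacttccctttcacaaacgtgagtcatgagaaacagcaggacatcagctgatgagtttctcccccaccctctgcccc
Irf7: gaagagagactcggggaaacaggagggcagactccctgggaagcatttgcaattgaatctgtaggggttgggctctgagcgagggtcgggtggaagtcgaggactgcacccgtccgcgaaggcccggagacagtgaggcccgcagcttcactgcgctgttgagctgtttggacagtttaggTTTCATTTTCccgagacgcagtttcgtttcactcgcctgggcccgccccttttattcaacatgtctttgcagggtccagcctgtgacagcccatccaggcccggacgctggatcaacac
Oas1a: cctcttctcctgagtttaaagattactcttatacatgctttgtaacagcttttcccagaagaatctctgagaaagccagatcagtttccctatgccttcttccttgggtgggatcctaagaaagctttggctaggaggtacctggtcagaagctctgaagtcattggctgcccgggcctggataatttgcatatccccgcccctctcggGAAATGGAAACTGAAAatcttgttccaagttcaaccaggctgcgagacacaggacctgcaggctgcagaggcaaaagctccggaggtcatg
In Ifit3 and Irf7 the single match lies 44 and 69 bases before the start. In Oas1a there are 2 overlapping matches, the first 41 bases before it.

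Macrophage markers were higher under LA as a group. All 15 tested were higher in the mean, with a median of 0.44, 5 had an unadjusted p under 0.05 and 3 did not overlap. Over all genes 55.3% were higher in the mean, 2.39% had such a p on the higher side and 1.32% lay higher without overlap. This list too was chosen with earlier results of these data known. Mertk, a receptor for the uptake of dying cells, was at 4.52 to 7.10 FPKM under PF and 7.11 to 10.1 under LA. In the list of lysosome and lipid handling genes of macrophages, 16 of 20 were higher, with a median of 0.17 and 5 under 0.05. Lgals3, the galactose-binding lectin that marks lipid-associated macrophages, was at 279, 314, 246 and 329 FPKM under PF and 803, 359, 531 and 387 under LA (0.76, SE 0.24). LA replicate 1 was far above the rest, while LA replicates 2 and 4 were close to the highest PF library. The tetraspanin Cd9 was at 167, 205, 203 and 209 FPKM under PF and 289, 241, 287 and 232 under LA (0.42, SE 0.11), with no overlap. Both genes are also made by other cells.

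The excess of macrophage transcripts was largest in LA replicate 1. The mean log2 deviation of the 15 markers was -0.16, -0.08, -0.39 and -0.20 in PF replicates 1 to 4 and 0.64, -0.07, 0.16 and 0.10 in LA replicates 1 to 4, and the summed markers ranged from 1058 to 1593 FPKM and from 1448 to 2864 FPKM. Without LA replicate 1 the median was 0.24 and 5 of 15 were under 0.05; leaving out LA replicate 2 gave 11, and leaving out PF replicate 2 or LA replicate 4 gave 8. In a tissue piece, more macrophages and more RNA per macrophage cannot be told apart. C3ar1, the receptor of the complement fragment C3a, was tight, at 3.52 to 4.24 FPKM under PF and 4.96 to 5.35 under LA (0.33, SE 0.09). Il1rn, the interleukin-1 receptor antagonist, was at 4.00 to 5.78 and 5.76 to 15.0 FPKM and overlapped. Ccl4, a chemokine of activated macrophages, went the other way, at 3.43, 3.68, 1.87 and 4.27 FPKM under PF and 2.06, 0.878, 0.999 and 0.898 under LA. The complement list had a median of 0.19 with 14 of 17 higher, and 0.04 without the first PF and first LA library.

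Genes of fatty acid synthesis were mostly lower under LA. Of 17 tested, 15 were lower in the mean (44.7% of all genes were), with a median of -0.53. On the lower side 6 had an unadjusted p under 0.05 (1.53% of all genes did). Elovl6, which extends palmitate to stearate, was at 12.6, 6.81, 4.05 and 12.4 FPKM under PF and 3.67, 4.23, 4.02 and 2.85 under LA (-0.98, SE 0.29). The PF libraries were spread widely: replicate 3 was as low as the LA libraries. Pnpla3, a lipid droplet acyltransferase and lipase induced by carbohydrate, had the same shape, at 142, 101, 50.2 and 119.6 FPKM under PF and 53.9, 48.5, 59.5 and 22.3 under LA. Summed over the list without Scd1, PF replicate 3 had 2210 FPKM, against 6176 to 7649 in the other PF libraries and 2554 to 4656 under LA. Leaving out 1 library at a time, the number lower at under 0.05 ranged from 2, without PF replicate 4 or LA replicate 4, to 11, without PF replicate 3; it was 3 without PF replicate 1 or LA replicate 2. The median was -0.34 without PF replicate 4 and -0.69 without PF replicate 3.

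Hepatocyte markers moved the same way and are given beside this list. All 11 tested were lower in the mean (44.7% of all genes were), with a median of -0.77 and none under 0.05. Their summed level was 454 to 1052 FPKM under PF and 101 to 925 under LA, with LA replicate 4 lowest, and without it the median was -0.32. Without LA replicate 3, the highest LA library, it was -1.23 and 9 members were under 0.05. Measured against the PF livers, the hepatocyte genes in fat amounted to 0.387 to 0.873% under PF and 0.0918 to 0.788% under LA. Ahsg, a secreted liver glycoprotein, was at 36.6, 24.8, 30.9 and 54.0 FPKM under PF and 21.9, 19.4, 50.5 and 5.27 under LA. LA replicate 4 also had the lowest mean of the lipogenic genes without Scd1 (-0.61, against -0.37 in PF replicate 3), while PF replicate 3 was lowest with Scd1 included; the part of hepatocyte RNA in that list was not tested.

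Triglyceride synthesis genes were lower in 11 of 13 cases, with a median of -0.12 and 4 under an unadjusted p of 0.05. Of all genes, 44.7% were lower in the mean and 1.53% were lower at that p. Gpd1, which makes glycerol 3-phosphate, was at 1969.8, 1699, 1313 and 1966 FPKM under PF and 1315, 1169, 1426 and 878 under LA (-0.54, SE 0.19). Gpam, the first acyltransferase, and Dgat2, the last, had fold changes of -0.71 (SE 0.23) and -0.40 (SE 0.16). In each of them PF replicate 3 or 2 lay within the LA range. The median was -0.07 without PF replicate 1 and -0.26 without PF replicate 2. Mogat2, a monoacylglycerol acyltransferase, was at 2.90 to 8.47 FPKM under PF and 1.85 to 3.61 under LA.

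Lpl, the lipoprotein lipase that feeds fatty acids to adipocytes, was at 3915, 2867, 2582 and 4005 FPKM under PF and 2339, 2171, 2562 and 1840.2 under LA (-0.57, SE 0.18, 95% interval -0.97 to -0.16). The feeds did not overlap, but the highest LA value and the lowest PF value were close together. Acsl1, the main acyl-CoA synthetase of fat, was at 1227 to 1708 FPKM under PF and 988 to 1289 under LA (-0.36). Cd36, the fatty acid translocase, was at 100.5 to 138 and 115 to 155 FPKM. As a list, fatty acid uptake and activation had a median of -0.05, with 10 of 18 lower in the mean. An unadjusted p under 0.05 was found for 3, all lower. Over all genes 44.7% were lower in the mean and 1.53% lower at that p. The lipolysis and lipid droplet list had a median of -0.04. The lipases Pnpla2 and Lipe had fold changes of 0.17 (95% interval -0.14 to 0.47) and 0.05 (-0.18 to 0.28). Adfp, the droplet coat protein now called Plin2, was at 94.2 to 132 FPKM under PF and 127 to 249 under LA, highest in LA replicate 1. Adrb3, the β3-adrenergic receptor through which catecholamines start lipolysis, was at 23.4, 23.1, 29.1 and 20.2 FPKM under PF and 8.98, 15.7, 15.0 and 18.7 under LA (-0.71, SE 0.20), with no overlap.

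**Figure D3:**
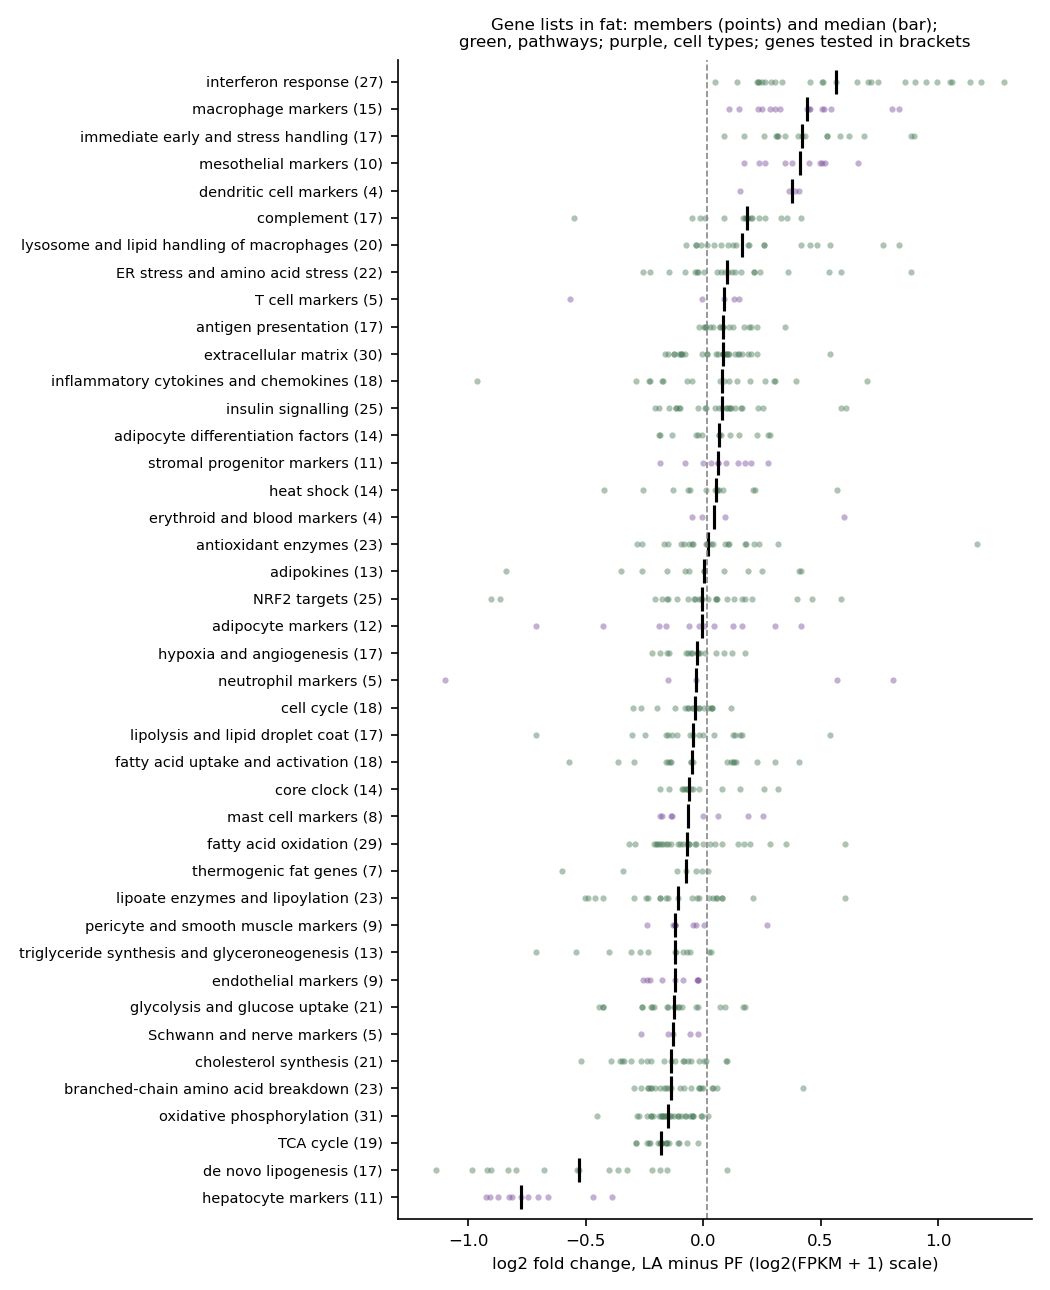
Log2 fold changes, LA minus PF, of the members (points) and the median (black bar) of each gene list with at least 3 genes tested, ordered by median; the dashed line is the median of all genes, 0.01. The axis leaves out Scd1. Interferon-response and macrophage lists lie furthest right (medians 0.56 and 0.44), and lipogenesis and hepatocyte lists furthest left (-0.53 and -0.77).

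Glucose use and mitochondrial genes were slightly lower. Over all genes 44.7% were lower in the mean and 1.53% lower at an unadjusted p under 0.05. Slc2a4, the insulin-responsive glucose transporter, was at 43.8, 39.0, 30.7 and 44.6 FPKM under PF and 33.0, 29.2, 26.3 and 27.5 under LA (-0.43, SE 0.13), with PF replicate 3 inside the LA range. In the glycolysis list 17 of 21 genes were lower (median -0.12, 2 under 0.05), and Pfkfb3, which makes the activator of phosphofructokinase, had a fold change of -0.42. All 19 tested genes of the TCA cycle were lower in the mean (median -0.18), of which Idh3a and Pc were under 0.05. Idh3a, a subunit of isocitrate dehydrogenase, was at 53.9 to 69.5 FPKM under PF and 45.3 to 53.7 under LA. In oxidative phosphorylation 30 of 31 genes were lower (median -0.15) and none was under 0.05.

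The lipoate-dependent complexes, whose cofactor was fed, had a median of -0.11, with 15 of 23 genes lower (44.7% of all genes were). The 3 under 0.05 were Pdk1, a kinase that inactivates pyruvate dehydrogenase (-0.49), Dlat, its lipoate-bearing E2 subunit (-0.46), and Pdhx, the E3-binding protein (-0.43). Dlat was at 65.6, 50.6, 36.8 and 68.3 FPKM under PF and 44.6, 36.3, 40.1 and 35.0 under LA, so that PF replicate 3 lay inside the LA range. Branched-chain amino acid breakdown genes were lower in 19 of 23 cases (median -0.14). Mccc1, a subunit of methylcrotonyl-CoA carboxylase, was at 12.4 to 14.4 FPKM under PF and 10.4 to 12.0 under LA.

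These mitochondrial medians depended on single PF libraries. The counts under 0.05 with a library left out are given without the share of all genes in the same fit. Without PF replicate 3 they were -0.27 for the TCA cycle, -0.27 for oxidative phosphorylation and -0.22 for branched-chain breakdown, with 10 of 19, 8 of 31 and 11 of 23 genes under 0.05. Without PF replicate 4 they were -0.14, -0.07 and -0.08, with none under 0.05, and without PF replicate 1 none was under 0.05 either. The per-library mean of the oxidative phosphorylation genes was 0.12, 0.21, -0.29 and 0.25 in PF replicates 1 to 4 and 0.15, -0.23, 0.06 and -0.27 in LA replicates 1 to 4, so the feeds overlapped fully. Fatty acid oxidation had a median of -0.07 over 29 genes, of which 9 were higher and 20 lower in the mean.

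The hormones of fat cells were level for the most part. Leptin (Lep), which signals fat mass through the receptor these rats lack, was at 2115, 1532, 1426 and 1368 FPKM under PF and 1163, 1767, 1489.7 and 2076 under LA, a fold change of 0.00 with a 95% interval of -0.45 to 0.46. Adiponectin (Adipoq), the insulin-sensitizing hormone, was at 5304 to 5638 and 4908 to 5514 FPKM (95% interval -0.33 to 0.20). Resistin (Retn) was at 770.4 to 1172 and 749.6 to 1224 FPKM. Cfd, or adipsin, which activates the alternative complement pathway, was higher without overlap, at 1198, 1245, 1291 and 1099 FPKM under PF and 1865, 1560.2, 1690.5 and 1371 under LA (0.42, SE 0.12). Apln, the vasoactive peptide apelin, was lower without overlap, at 6.67, 8.40, 7.46 and 4.74 FPKM under PF and 4.23, 3.54, 3.52 and 2.17 under LA (-0.84, SE 0.19). Nampt, the NAD-salvage enzyme also called visfatin, had a fold change of -0.26.

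Adipocyte markers had no common direction. Pparg, the master factor of fat cells, had a fold change of -0.19 (95% interval -0.55 to 0.17) and Plin, the droplet coat perilipin, one of -0.02 (-0.28 to 0.25). The 12 adipocyte markers had a median of -0.01, with 6 higher and 6 lower in the mean and with Adrb3 (-0.71) and Cfd (0.42), described above, at the extremes. The 14 differentiation factors had a median of 0.07. Endothelial markers were lower in 9 of 9 cases, with a median of -0.12 and 2, Egfl7 and Emcn, under 0.05. In the all-gene background 44.7% were lower in the mean and 1.53% lower at that p. Esm1, a secreted endothelial proteoglycan, was at 5.003 to 6.01 FPKM under PF and 3.00 to 4.69 under LA, without overlap. Without the first PF and first LA library the endothelial median was 0.02. Other genes with small p on the lower side were Lrrc48, Zfp185, Tmem88, Dclk3 and Pmepa1, a TGF-β-induced inhibitor of SMAD signalling at 78.8 to 111 FPKM under PF and 51.0 to 73.3 under LA. On the higher side Homer3, a scaffold protein, was at 14.01 to 18.7 and 20.2 to 25.0 FPKM.

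NRF2 target genes, which electrophiles induce, were not shifted as a group, with 12 of 25 higher and a median of -0.00. Of them, 3 were under 0.05 on the higher side (2.39% of all genes were), and 55.3% of all genes were higher in the mean. Srxn1, which repairs oxidized peroxiredoxins, was at 12.5, 11.0, 9.87 and 12.9 FPKM under PF and 26.6, 13.7, 18.0 and 15.2 under LA (0.59, SE 0.18), without overlap. Ftl, the ferritin light chain, was at 946 to 1369 and 1319 to 1598 FPKM, and the glutathione transferase Gstp1 had a fold change of 0.40. Nfe2l2, the gene of NRF2, was level (-0.11, 95% interval -0.31 to 0.08). Among antioxidant enzymes, with a median of 0.02, the metallothionein Mt2A was at 36.3 to 81.1 FPKM under PF and 76.5 to 255 under LA, and catalase (Cat) at 268 to 362 and 238 to 267. Cholesterol synthesis was lower in 17 of 21 genes (44.7% of all genes were), with a median of -0.14. Hmgcs1, Fdft1 and Nsdhl were among 4 under 0.05 (1.53% of all genes were lower at that p). Without LA replicate 4 the median was -0.06. None was under 0.05 without LA replicate 4, PF replicate 1 or PF replicate 4.

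Immediate early genes, which react within minutes to handling of a tissue, varied more between rats than between feeds. Fos was at 15.9, 7.94, 19.5 and 91.3 FPKM under PF and 109, 60.6, 8.99 and 22.8 under LA. Each feed held both high and low rats. The 17 genes tested were all higher in the mean, with a median of 0.42, and 4 were under 0.05, among them Atf3 and Klf6. In the all-gene background 55.3% were higher in the mean and 2.39% higher at that p. The mean deviation was -0.25, -0.52, -0.37 and 0.22 in PF replicates 1 to 4 and 1.08, 0.29, -0.55 and 0.10 in LA replicates 1 to 4. Without LA replicate 1 the median was 0.17 and 1 gene was under 0.05, and without LA replicate 3 it was 0.68 and 10 were; without PF replicate 1, 2 or 3 the number was 0, 1 and 1. LA replicate 1 was also highest in interferon-response, macrophage and lysosome genes, and the part of handling in those lists was not tested. Heat shock genes had a median of 0.05, with Hspa1a at 14.6 to 21.5 and 21.4 to 36.0 FPKM and Cryab lower (-0.42).

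The spread between rats of one feed was as large as the distance between feeds. Pairs of PF libraries had a median of 208 genes more than 2-fold apart, pairs of LA libraries 229.5, and pairs across the feeds 191.5. Across genes, log2 values correlated at 0.979 to 0.986 within PF, 0.968 to 0.991 within LA and 0.965 to 0.990 between feeds. The median within-feed SD of a gene was 0.18 under PF and 0.17 under LA, and the PF libraries were the more variable in 6137 genes against 5364. On the 9162 genes tested in both tissues, these SDs were 0.17 and 0.16 in fat and 0.13 in liver under each feed. In 564 genes (4.90%) the pooled SD exceeded 0.5.

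Mesothelial genes, from the cell layer over the fat pad, were prominent: Upk3b was at 7.69, 60.8, 72.3 and 37.8 FPKM under PF and 23.0, 81.6, 52.2 and 89.5 under LA. In Krt19, Lrrn4 and Igfbp2 too, PF replicate 1 and LA replicate 1 were the lowest of their feeds. The 10 mesothelial markers had a median fold change of 0.41 with all libraries and of -0.15 without PF replicate 1. Haemoglobin Hba-a2 ranged from 1523 to 4725 FPKM with no feed difference (-0.05, SE 0.40). Apoa4, a liver and gut apolipoprotein, ranged from 2.39 to 24.8 FPKM. Among neutrophil markers Retnlg was at 18.3 FPKM in PF replicate 2 and 1.57 to 7.66 in the other libraries, and S100a8 stood at 0.573 to 3.76 under PF and 2.58 to 4.95 under LA.

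**Figure D4:**
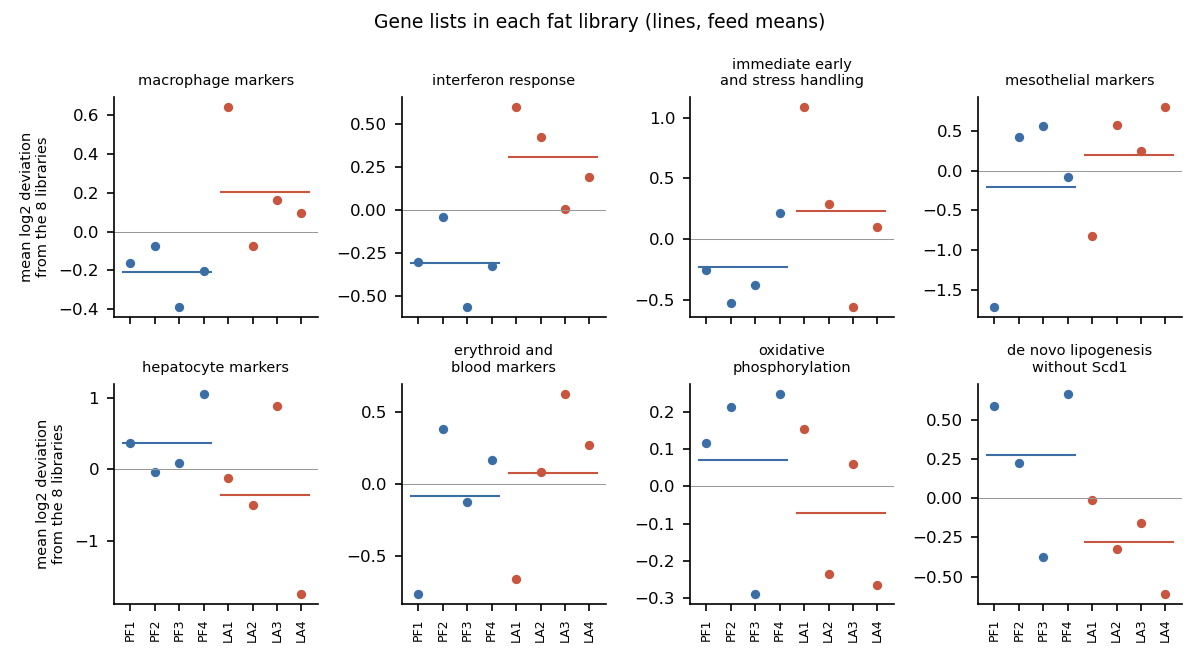
Mean log2 deviation of 8 gene lists in each library from the 8-library mean (points; blue, PF; red, LA) with feed means (lines). PF replicate 1 lies lowest in mesothelial markers (-1.72), LA replicate 4 lowest in hepatocyte markers (-1.74), and LA replicate 1 highest in macrophage and immediate early genes (0.64 and 1.08).

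The first principal component, with 41.8% of the variance, did not follow the feed. PF replicates 2 and 4 and LA replicates 1 and 3 had positive scores, and PF replicate 3 and LA replicates 2 and 4 scored -17.5, -16.0 and -27.5. The same 3 libraries had the lowest means of oxidative phosphorylation genes. The second component, with 21.2%, was led by Scd1 and had scores of -17.3, 5.19, -9.60 and -16.0 under PF and 19.1, 7.03, 0.938 and 10.6 under LA, so the feeds overlapped through PF replicate 2 and LA replicate 3. The third component, with 12.5%, set PF replicate 1 and LA replicate 1, at 18.4 and 11.4, apart from the rest.

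**Figure D5:**
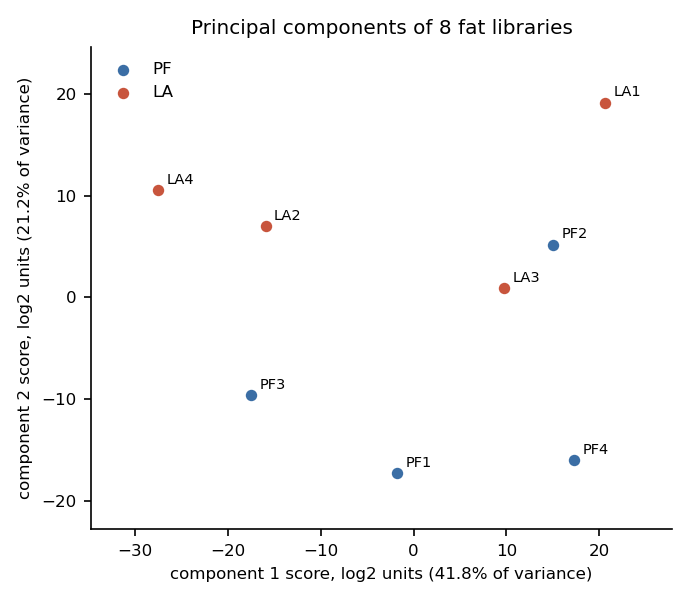
Scores of the 8 fat libraries on the first 2 principal components of log2(FPKM + 1), in log2 units (blue, PF; red, LA; labels give the replicate). Each feed is spread across component 1, and on component 2 the LA libraries score 0.938 to 19.1 and the PF libraries -17.3 to 5.19.

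The feed difference in fat was set against that in liver by the interaction of tissue and feed. All 16 libraries were taken as independent with a common variance per gene, because the labels do not pair liver and fat. The interaction p-values therefore ignore that both tissues came from the same rats. In liver 435 of 9710 genes passed (4.48%). The interaction passed for 46 of 12079 genes (0.381%), and for 3 of the 27 interferon-response genes, of which Rsad2 and Cmpk2 had the smaller difference in fat. Rsad2, or viperin, which blocks viral budding, had a fold change of 0.51 in fat and 2.54 in liver, a difference of -2.04 (SE 0.26, limma, adjusted p = 0.00118). Cmpk2, its neighbour gene and a nucleotide kinase, differed by -1.45 (adjusted p = 0.0119). For Mx2 the interaction was -1.503 and did not pass (adjusted p = 0.0547). Il1rn went the other way, with a fold change of 0.70 in fat and -0.64 in liver, a difference of 1.34 (SE 0.26, adjusted p = 0.0394). The count of 46 fell by over 1.5 times without any of 7 libraries: to 19, 24 and 28 without PF fat replicates 1, 2 and 4, to 30 and 28 without LA fat replicates 2 and 4, and to 22 and 24 without PF liver replicate 1 and LA liver replicate 2. Scd1 also passed, with its PF zeros in fat, and in liver it was at 2801 to 3765 FPKM under PF and 379 to 1684 under LA.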

How the data were processed

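Total RNA (TRIzol, then RNeasy) was made into libraries with an unstranded TruSeq V2 kit, per the labels' protocols. The authors deposited 1 table of FPKM per library; CASAVA 1.8.2, TopHat and Cuffdiff are named in the submitters' processing notes, while the build and annotation were not given in the sources used. Overlapping and antisense genes cannot be told apart without strand, and total depth is unknown.

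From these values, genes reaching 1 FPKM in 4 or more of the 8 fat libraries were kept, log2(FPKM + 1) was taken and LA was compared with PF in limma 3.58.1 (R 4.3.3), letting the prior variance follow the mean level and adjusting by Benjamini-Hochberg at 0.05. The interaction with liver was fitted over all 16 libraries, taken as independent. The code was tested on simulated data. Named genes were those past the threshold, those with the smallest p in each direction, the members of gene lists under an unadjusted p of 0.05, preset adipokines and the most variable genes; some of these are not reported here. The members and lists were chosen with earlier results of these data known. The lists name 804 genes: 727 were found under their symbol, 28 under an older one and 49 not at all. Alternatives were another pseudocount, filter, scaling, weighting and model, and leaving out each library.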

Additional observations from a re-analysis of the deposited data

Results flagged for a closer look

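In 9 of 182 groups of 4 libraries, 1 value stood further from the others than Dixon's critical value allows; chance gives this in about 1 in 20 groups, so the number is near what chance gives. Under PF, replicate 2 was high for Tmem158 (4.05 FPKM, the others 2.93 to 3.00). PF replicate 4 was high for Pmepa1 (111, the others 78.8 to 82.5) and Fos (91.3, the others 7.94 to 19.5) and low for Lipe (224, the others 259.9 to 266). PF replicate 1 was low for Cd9 (167, the others 203 to 209). Under LA, replicate 1 was high for Ccl4 (2.06, the others 0.878 to 0.999) and Atf3 (39.1, the others 11.0 to 13.2). LA replicate 2 was high for Plin (635, the others 512 to 531), and LA replicate 3 was low for Slfn3 (8.88, the others 15.4 to 16.6). None of 22 groups of list means was past that value.

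The feed difference in fat minus that in liver passed limma's interaction test for 7 genes named here besides Scd1, for which no value is given because PF fat is listed at 0: LOC100359973 (-2.87), LOC100360859 (-2.54), LOC100363391 (-2.27), Rsad2 (-2.04), Cmpk2 (-1.45), Lrrc48 (-0.80) and Il1rn (1.34). LOC100360859 and LOC100363391 passed the fat filter only through the PF libraries, where they are high.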

How the results depend on the processing

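The 2 genes called in fat were 1 with a pseudocount of 0.1, 1 with the replicate block and 7 with all 16 libraries in one model. With 1 library left out the count was 0 to 2, and 0 without LA replicate 2 or 3. Without any 1 LA library Scd1 falls below the filter and is not tested, so of the 2 only LOC100359973 could be called again. In alternatives chosen after seeing the data, the count was 0 without the first PF and first LA library. Scd1 was again not tested there, and 275 genes had an unadjusted p under 0.05 with limma. The count was 1 without liver-enriched genes, those with a liver mean of 20 or more times the fat mean. That step removes LOC100359973 before testing, so of the 2 only Scd1 could be called again. The 7 were Scd1, LOC100359973, LOC100360057, LOC100360859 (-2.18), LOC100363391 (-1.97), Ifit3 (0.95) and Mx1 (1.18). The count for fat minus liver, 46, was 22 with no filter, 94 at an adjusted p under 0.1 and 19 to 60 with 1 library left out. Between the feeds, replicate numbers mark different rats, and the labels do not say whether equal numbers match a PF with an LA rat. Deviations from the feed mean in fat correlated at -0.43 to -0.06 between PF and LA libraries of equal number. For unequal numbers the correlations ranged from -0.67 to 0.64, so these values do not settle a pairing. Whether a number marks the same rat in liver and fat is not given by the labels and was not tested. With the replicate block the count for fat minus liver was 32. The median within-feed SD was 0.21 with a pseudocount of 0.1 in place of 0.18.

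Of 1709 values for 91 genes, 1670 kept direction and side of the threshold. LOC100359973 lost its call with a pseudocount of 0.1 (-4.33) and with the block (-2.84). Signs reversed in 11 genes, none called, counting Fabp4, the top gene of all 8 libraries, which quantile normalization makes equal by construction. With median centring Lep was at -0.0193; with quantile normalization Lep was at -0.0591, Hba-a2 at 0.0758 and Fabp4 at -5.51e-16; with array weights Hba-a2 was at 0.28; without the first PF and first LA library Plin was at 0.0713 and Fos at -0.0698. With 1 library left out the ranges were -0.127 to 0.152 for Lep, -0.215 to 0.0458 for Retn, -0.0153 to 0.0889 for Lipe, -0.0871 to 0.0371 for Plin, -0.359 to 0.808 for Igfbp2, -0.0116 to 1.07 for Upk3b, -0.183 to 0.861 for Krt19, -0.579 to 0.397 for Apoa4 and -0.326 to 0.26 for Hba-a2. The cause was not tested.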
